A study of Mus musculus with 53 samples.

Results

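The genes described here mark osteoblasts, the cells that build bone, and chondrocytes, the cells of cartilage: Mgp, Ogn, Spp1, Bmp4, Runx2, Bglap, Alpl and Ibsp. They were found by gene symbol, or by the Entrez identifier of the same gene, in the platform annotation of a mouse expression array. Named probe sets existed for 5 of these 8 genes, in all 8 of the 12488 probe sets of the array. Mgp and Alpl had 1 probe set each, and Ogn, Bmp4 and Ibsp had 2 each, while Spp1, Runx2 and Bglap were not analysed here. Of the 8 probe sets, 6 covering all 5 genes exceeded 158, the median intensity of all arrays, on 2 or more of 53 arrays and were tested, and the second probe sets of Bmp4 (93456_r_at) and Ibsp (100476_at) are given as values only.

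The cells were NIH-3T3, an immortalised line of mouse embryonic fibroblasts, transduced with 1 of 3 vectors. The inserts were EBF1, which directs B cell development as a transcription factor, and PPARg2 (labelled PPARg here), the nuclear receptor form of adipocytes, and the third vector was empty. Cells of every group, the empty vector included, received hormones to start adipocyte differentiation. RNA was sampled on day 0 (d0), before the hormones, and again at d2, d4 and d10. For each of EBF1, PPARg and vector there were 4 arrays at d0, 4 at d2 and 7 at d4, and d10 had 2 EBF1, 3 PPARg and 3 vector arrays. The promoter that drove the inserts, the hormones, and whether the transduced cells were pools or clones are not given in the sources used here.

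Osteoblasts, chondrocytes and adipocytes arise from a common mesenchymal precursor, and the regulators of 1 fate often restrain another. Bone morphogenetic proteins such as Bmp4 are secreted ligands that act through receptor kinases and Smad proteins, and Runx2 is the transcription factor that commits cells to the osteoblast fate. Matrix genes follow: Mgp and Bglap encode proteins whose calcium binding needs vitamin K, Ogn a small leucine-rich proteoglycan, and Spp1 and Ibsp phosphoproteins that bind integrins and mineral, while Alpl encodes the phosphatase that frees phosphate for mineral.

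The array medians lay between 143 and 168 intensity units on the linear scale of the deposited table. Values below the pooled 20th percentile of 54.5 were set to that floor before log2 was taken. Arrays were grouped into 3 processing sessions by the month in each array's comment line, with 2 neighbouring months joined as session 2. In sessions 1 and 2, each group up to d4 had 2 arrays per session, and session 3 contained all d10 arrays with the remaining 3 d4 arrays of each insert. Differences are log2 folds ± standard error from 1 limma model over all 53 arrays, and a probe set passed when its Benjamini-Hochberg adjusted p over the 7619 tested probe sets was under 0.05. The labels call the stimulations independent but do not say which arrays came from separate cultures, so the p-values measure the spread between arrays. RNA came from whole cultures, in which fewer cells of a type and less RNA per cell cannot be told apart.

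Of 6 defining osteoblast markers 3 had a probe set: Ibsp and Alpl, described below, and Dmp1, a matrix protein of osteocytes, which ranged from 26.4 to 69.7 and lay above the floor on 16 of 53 arrays. Of 8 defining chondrocyte markers 6 had a probe set. Hapln1, which links hyaluronan to aggrecan, did not exceed the floor on any array, and Matn1, a cartilage matrix protein, lay above it on 1. Col10a1, the collagen of hypertrophic cartilage, ranged from 43.1 to 79.6 and lay above it on 39. Acan, Col2a1 and Col9a1, which encode cartilage aggrecan and collagens, lay above the floor on all 53 arrays, at 98.5 to 519, 61.7 to 173 and 191 to 353. These 3 were tested, and 0 passed in limma in any comparison of EBF1 or PPARg with vector. All 11 fibroblast markers, such as Col1a1, Col3a1, Pdgfra and Vim, lay above the floor on all 53 arrays.

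Mgp, the matrix Gla protein that keeps cartilage and vessel walls from calcifying, was lower with both EBF1 and PPARg than with vector at d4 and d10. At d0 it read 442, 341, 285 and 284 with EBF1, 419, 503, 495 and 443 with PPARg, and 425, 416, 374 and 245 with vector. The arrays of the 3 groups overlapped, and neither difference passed (log2 fold -0.10 ± 0.24 for EBF1 and 0.38 ± 0.24 for PPARg over vector, with 95% intervals of -0.58 to 0.37 and -0.10 to 0.86). Its probe set, 93866_s_at, carries the suffix of sets whose probes can match several related transcripts.

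On d2 the EBF1 arrays gave 54.9, 60.2, 64.7 and 57.5 for Mgp, just above the floor, the PPARg arrays 102, 101, 102 and 106, and the vector arrays 93.2, 107, 111 and 83.4. Every EBF1 array lay below every PPARg and vector array. Against PPARg the difference of EBF1 was -0.79 ± 0.24 (limma adjusted p = 0.037), which passed, in a comparison where 5.15% of all tested probe sets did. This call was lost without any single 1 of the 8 arrays, with log2 folds of -0.83 to -0.76 and limma adjusted p of 0.057 to 0.096. Against vector EBF1 was lower by a similar amount (-0.73 ± 0.24) but did not pass (limma adjusted p = 0.13), where 1.54% of all probe sets passed. The replicate numbers paired the EBF1 and vector arrays of d2, and with the replicate number as a block the same difference of -0.73 passed (limma adjusted p = 0.0069, for Mgp 93866_s_at, EBF1 against vector at d2). That block raised the count of all probe sets past the test in this comparison to 238, against 117 without it. The difference also passed with the session as a block. PPARg and vector did not separate at d2 (0.06 ± 0.24, 95% interval -0.41 to 0.54), where 0.564% of all probe sets passed.

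At d4 Mgp had a lowest, median and highest intensity of 150.5, 203 and 263 on 7 EBF1 arrays, of 176, 227 and 333 on 7 PPARg arrays, and of 259, 391 and 883 on 7 vector arrays. The groups overlapped across sessions, and the session 3 vector arrays (770.5, 693 and 883) lay above the vector arrays of sessions 1 and 2 (259, 347, 391 and 311). Within session 3 the EBF1 arrays (203, 227 and 263) and the PPARg arrays (324, 259.6 and 333) all lay below the vector arrays, and within sessions 1 and 2 the EBF1 arrays (150.5, 198, 212 and 193) and PPARg arrays (208, 176, 209 and 227) did too. The log2 fold over vector was -1.21 ± 0.18 for EBF1 (limma adjusted p = 1.2e-06), 2.31-fold lower, and -0.96 ± 0.18 for PPARg (limma adjusted p = 2.1e-04), 1.95-fold lower.

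The size of the Mgp difference at d4 went with the session. EBF1 minus vector was -0.80 in session 1, -0.79 in session 2 and -1.76 in session 3, and PPARg minus vector was -0.65, -0.68 and -1.36. With 2 arrays per group, PPARg against vector did not pass in limma fits of session 1 or session 2 alone (adjusted p = 0.051 and 0.24). EBF1 and PPARg did not separate at d4 (-0.25 ± 0.18, 95% interval -0.61 to 0.11).

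By d10 Mgp had fallen to 49.8 and 59.3 with EBF1 and to 56.7, 61.7 and 65.7 with PPARg, against 219, 185 and 183 with vector. No EBF1 or PPARg array came near the vector arrays, and 1 of the 2 EBF1 arrays was below the floor. The log2 fold over vector was -1.78 ± 0.31 for EBF1 (limma adjusted p = 1.2e-05), at least 3.44-fold lower since 1 array was held at the floor, and -1.67 ± 0.27 for PPARg (limma adjusted p = 4.3e-06), 3.19-fold lower. With the floor raised to the 40th percentile of 115, which cuts off the low end of Mgp, the EBF1 value became -0.76 and did not pass (limma adjusted p = 0.074). EBF1 minus PPARg was -0.11 ± 0.31, with a 95% interval of -0.72 to 0.51.

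**Figure D1:**
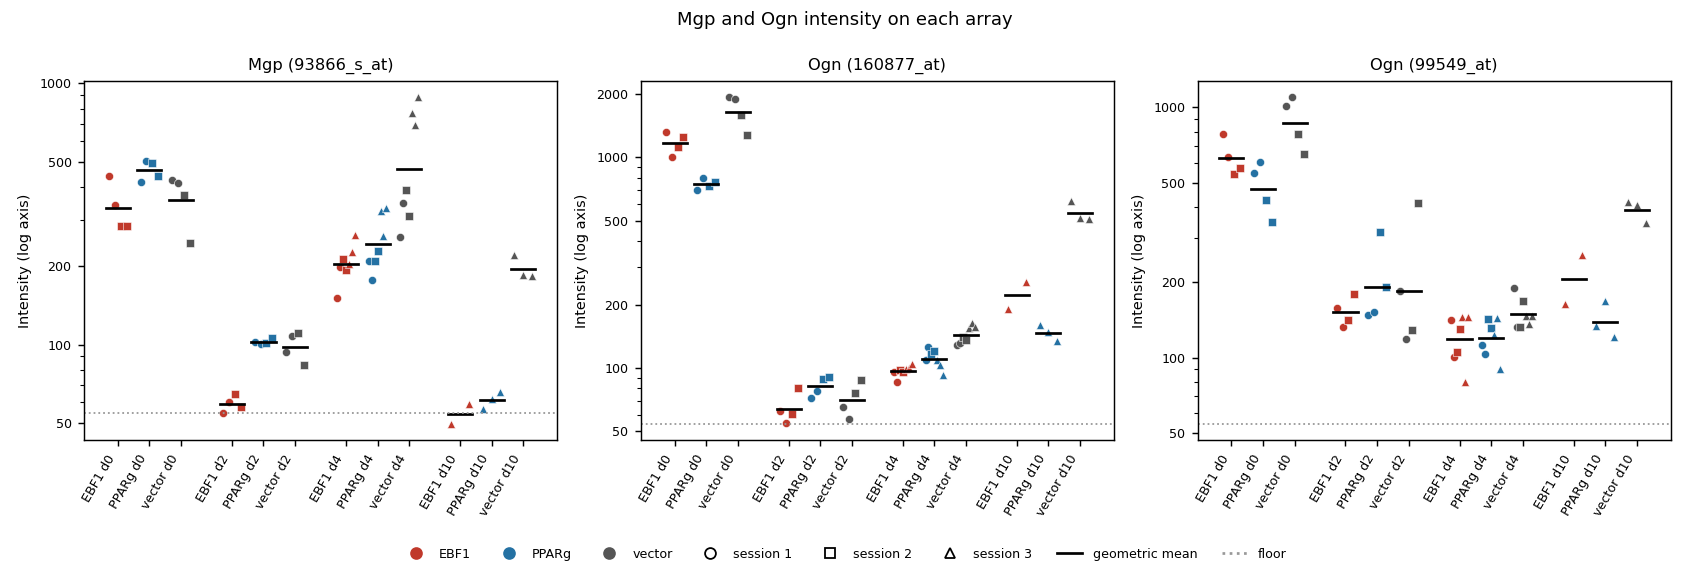
Intensity of Mgp and of both Ogn probe sets on each of 53 arrays (log axis) by insert and day; each point is an array, its shape the processing session, each bar a geometric mean, and the dotted line the floor of 54.5. Mgp at d10 sits at 49.8 to 65.7 with EBF1 and PPARg and at 183 to 219 with vector, and Ogn drops in every group between d0 and d2.

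Mgp also moved with time in every group. The log2 change from d0 to d2 was -2.49 ± 0.24 with EBF1, -2.18 ± 0.24 with PPARg and -1.86 ± 0.24 with vector, with no overlap between the days (limma adjusted p of 5.3e-12, 2.6e-10 and 1.5e-08). At d4 it stood between its values of d2 and d0 with EBF1 (d4 against d0, -0.70 ± 0.21) and with PPARg (-0.94 ± 0.21), and both differences passed in limma. The EBF1 call was lost without EBF1 d0 replicate 1 (-0.57, limma adjusted p = 0.055). With vector the same difference was 0.40 ± 0.21 and did not pass; within session 1 it was -0.49 and passed in that session's limma fit (adjusted p = 0.048), and within session 2 it was 0.20. At d10 Mgp was lower than at d4 in all 3 groups, by -1.84 ± 0.27 with EBF1, where the array at the floor makes the size a lower bound, -1.98 ± 0.23 with PPARg and -1.27 ± 0.23 with vector. Within session 3 alone, which held both days, these were -2.01, -2.31 and -2.00.

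The change of Mgp between d0 and d4 differed between the inserts and vector. The difference of changes was -1.10 ± 0.30 for EBF1 minus vector (limma adjusted p = 0.013) and -1.34 ± 0.30 for PPARg minus vector (limma adjusted p = 0.0086). In fits of only the groups compared, the same differences of -1.10 and -1.34 did not pass in limma (adjusted p = 0.11 and 0.12). Session 3, where the Mgp difference at d4 was widest, held d4 arrays but no d0 arrays. In limma fits of sessions 1 and 2 alone, which held both days, EBF1 minus vector was -0.68 and -0.70 and did not pass (adjusted p = 0.10 and 0.46). PPARg minus vector was -0.78 in session 1 alone, which passed (limma adjusted p = 0.040), and -1.31 in session 2 alone, which did not (adjusted p = 0.071). Between d4 and d10 the change did not differ past the threshold, with -0.57 ± 0.35 for EBF1 minus vector and -0.71 ± 0.33 for PPARg minus vector. In session 3 alone these were -0.02 and -0.32.

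Ordered by mean log2 intensity, Mgp was highest in vector d4, PPARg d0, vector d0 and EBF1 d0, then PPARg d4, EBF1 d4 and vector d10, then PPARg d2 and vector d2, and lowest in PPARg d10, EBF1 d2 and EBF1 d10. Neighbours in that order overlapped except at 2 steps, between vector d10 and PPARg d2 and between vector d2 and PPARg d10.

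Ogn encodes osteoglycin, also called mimecan, a small leucine-rich proteoglycan of bone and connective tissue that binds collagen fibrils. Its promoter sequence is shown because both probe sets of Ogn fell together in all 3 groups between d0 and d2. The 250 bases before its RefSeq start site (GRCm38.p6, chr13:49607765-49608014, + strand) hold, E-boxes aside, a single match to the motifs searched. It is ACCACA, which Runx proteins bind, given in capitals and starting 65 bases before the start site (-65).
Ogn: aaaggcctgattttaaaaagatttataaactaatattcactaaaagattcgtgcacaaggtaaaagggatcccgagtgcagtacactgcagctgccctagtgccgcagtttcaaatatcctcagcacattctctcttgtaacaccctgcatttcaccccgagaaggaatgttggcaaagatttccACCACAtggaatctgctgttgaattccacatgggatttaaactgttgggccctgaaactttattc
Motifs were searched on both strands in windows of the same length before 32851 RefSeq start sites. The Runx motif ACCACA was found in 14.0% of them, the EBF motif CCCNNGGG in 11.8% and the nuclear receptor hexamer AGGTCA in 14.0%. The glucocorticoid receptor hexamer AGAACA was found in 16.1%, the C/EBP motif TTGCNNAA in 9.56%, and the E-box CANNTG, which is not marked, in 66.2%. An E-box overlaps the ACCACA match, and a match describes letters only.

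At d0 the probe set 160877_at of Ogn read 1323, 1002, 1122 and 1244 with EBF1, 701, 801, 734 and 767 with PPARg, and 1924, 1888, 1579 and 1270.3 with vector. Every PPARg array lay below every EBF1 and vector array, and the EBF1 and vector arrays overlapped through 1 array of each. PPARg was lower than vector by a log2 fold of -1.13 ± 0.12 (limma adjusted p = 1.0e-08), 2.19-fold lower. EBF1 was lower than vector by -0.49 ± 0.12 (limma adjusted p = 0.034) and higher than PPARg by 0.64 ± 0.12 (limma adjusted p = 3.8e-04). Within sessions 1 and 2 PPARg minus vector was -1.35 and -0.92, and EBF1 minus vector was -0.73 and -0.26.

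The second probe set, 99549_at, read 779.6, 633, 542 and 572 with EBF1, 549, 603, 427 and 347 with PPARg, and 1009, 1096, 779.8 and 653 with vector at d0. PPARg again lay below vector without overlap, while EBF1 overlapped both. PPARg was lower than vector by -0.88 ± 0.25 (limma adjusted p = 0.029), and EBF1 minus vector was -0.47 ± 0.25, which did not pass. At d0, 3.6% of all tested probe sets passed for PPARg against vector, 0.814% for EBF1 against vector and 6.02% for EBF1 against PPARg. Of the 6 probe sets of the lineage genes, 2, 1 and 1 passed there, all of Ogn, with a median log2 fold of 0.06 for PPARg and -0.01 for EBF1 over vector beside medians of 0.06 and 0.04 over all tested probe sets.

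The EBF1 call of 160877_at at d0 was lost without any 1 of vector d0 replicates 1, 2 and 3 or EBF1 d0 replicates 2, 3 and 4 (log2 folds of -0.53 to -0.42, limma adjusted p of 0.064 to 0.28). The PPARg call of 99549_at was lost without any 1 of vector d0 replicates 1 and 2 or PPARg d0 replicates 3 and 4 (-0.83 to -0.73, limma adjusted p of 0.093 to 0.14). Of 11 fibroblast markers, 4 were lower with PPARg than with vector at d0 and 0 with EBF1, where 3.6% and 0.814% of all probe sets passed in either direction. These markers summed to 32205 to 36151 with EBF1, 29766 to 31918 with PPARg and 33424 to 38265 with vector. Their part in the Ogn result was not tested.

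At d2 Ogn was low in every group. On 160877_at d2 read 62.6, 54.7, 60.3 and 80.1 with EBF1, 72.3, 77.4, 88.4 and 90.7 with PPARg, and 65.2, 57.2, 76.0 and 87.7 with vector, all close to the floor and overlapping. The change from d0 was -4.19 ± 0.12 with EBF1, -3.20 ± 0.12 with PPARg and -4.54 ± 0.12 with vector, which is 18.3-fold, 9.16-fold and 23.3-fold lower on d2 (limma adjusted p of 2.3e-30, 8.7e-26 and 3.3e-32). On 99549_at, whose d2 values ran from 119 to 413, the same changes were -2.04 ± 0.25, -1.29 ± 0.25 and -2.23 ± 0.25, and all passed in limma without overlap. Neither insert passed against vector at d2, with 160877_at at -0.15 ± 0.12 for EBF1 (95% interval -0.40 to 0.10) and 0.21 ± 0.12 for PPARg (-0.04 to 0.46).

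Between d2 and d0 the 3 probe sets of Mgp and Ogn passed in each group, of 6 tested, all lower, where 22.2% of all tested probe sets passed with EBF1, 23.6% with PPARg and 21.5% with vector. Between d4 and d0 the count was 3 with EBF1, 3 with PPARg and 2 with vector, beside 33.3%, 31.9% and 24.2% of all probe sets. Both Ogn probe sets were still lower at d4 than at d0, by -3.59 ± 0.11 and -2.40 ± 0.22 with EBF1, -2.76 ± 0.11 and -1.98 ± 0.22 with PPARg, and -3.52 ± 0.11 and -2.54 ± 0.22 with vector, for 160877_at and 99549_at in that order.

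At d4 160877_at had a lowest, median and highest intensity of 86.2, 98.3 and 105 with EBF1, of 92.2, 109 and 125 with PPARg, and of 128, 140.2 and 163 with vector. Every EBF1 and PPARg array lay below every vector array. The log2 fold over vector was -0.57 ± 0.09 for EBF1 (limma adjusted p = 8.3e-06) and -0.38 ± 0.09 for PPARg (limma adjusted p = 0.0063). Within sessions 1, 2 and 3 the EBF1 difference was -0.51, -0.51 and -0.64 and the PPARg difference -0.15, -0.22 and -0.64. PPARg did not pass in limma fits of session 1 or 2 alone (adjusted p = 0.44 and 1.0), nor did EBF1 in session 2 (adjusted p = 0.11).

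The other Ogn probe set, 99549_at, ran from 80.3 to 146 with EBF1, from 90.1 to 144 with PPARg and from 132 to 189 with vector at d4. It overlapped in both comparisons and did not pass, with -0.33 ± 0.19 for EBF1 (95% interval -0.71 to 0.04) and -0.32 ± 0.19 for PPARg (-0.69 to 0.06). In all, 2 of the 6 probe sets passed for each insert against vector at d4, Mgp and 160877_at, both lower, where 18.9% of all probe sets passed for EBF1 and 7.49% for PPARg. The median log2 fold of the 6 was -0.13 for EBF1 and -0.18 for PPARg, beside 0.04 and -0.02 over all tested probe sets. For EBF1 against PPARg at d4, 0 of the 6 passed in limma, beside 5.95% of all probe sets.

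Between d4 and d10 Ogn rose on 160877_at in all 3 groups, most in vector cells. At d10 160877_at read 191 and 257 with EBF1, 160.5, 148 and 134 with PPARg, and 619, 514 and 511 with vector. The 3 groups did not overlap. EBF1 was lower than vector by -1.30 ± 0.16 (limma adjusted p = 1.1e-08), 2.46-fold, and PPARg by -1.89 ± 0.14 (limma adjusted p = 1.6e-14), 3.70-fold.

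On 99549_at the d10 arrays gave 164 and 258 with EBF1, 134, 168 and 120.4 with PPARg, and 418, 406 and 345 with vector. All EBF1 and PPARg arrays lay below all vector arrays here too, while EBF1 and PPARg overlapped. EBF1 was lower than vector by -0.92 ± 0.32 (limma adjusted p = 0.036) and PPARg by -1.48 ± 0.28 (limma adjusted p = 6.7e-05). The EBF1 call was lost without vector d10 replicate 1, vector d10 replicate 2 or EBF1 d10 replicate 1 (-0.89 to -0.59, limma adjusted p of 0.072 to 0.45).

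EBF1 lay above PPARg at d10 on 160877_at by 0.59 ± 0.16 (limma adjusted p = 0.048), in a comparison where 1.33% of all probe sets passed. Leaving out any 1 of the 5 arrays ended this call (0.37 to 0.80, limma adjusted p of 0.074 to 0.61). The other Ogn probe set gave 0.56 ± 0.32 and did not pass.

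Compared with d4, 160877_at was higher at d10 by 1.19 ± 0.14 with EBF1, by 0.41 ± 0.12 with PPARg and by 1.93 ± 0.12 with vector, and all 3 passed in limma without overlap. Within session 3 these were 1.13, 0.54 and 1.79. The PPARg call was lost without PPARg d10 replicate 1 (0.35, limma adjusted p = 0.10). On 99549_at the values were 0.79 ± 0.28, 0.22 ± 0.24 and 1.38 ± 0.24. Of these the first passed in limma (adjusted p = 0.045) but not without any 1 of EBF1 d4 replicates 2, 3 and 6 and EBF1 d10 replicates 1 and 2 (0.47 to 1.12, adjusted p of 0.056 to 0.48), the second did not pass, and the third did.

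The rise of 160877_at between d4 and d10 was smaller with the inserts than with vector. The difference of changes was -0.73 ± 0.19 with EBF1 (limma adjusted p = 0.0090) and -1.51 ± 0.17 with PPARg (limma adjusted p = 9.6e-09). The EBF1 difference did not hold without EBF1 d10 replicate 1 (-0.52, limma adjusted p = 0.39) or in session 3 alone (-0.66, adjusted p = 0.058). On 99549_at these differences were -0.59 ± 0.37, which did not pass, and -1.16 ± 0.34 (limma adjusted p = 0.019). That PPARg call was lost without vector d10 replicate 1 or PPARg d10 replicate 1 or 3 (-1.13 to -1.05, limma adjusted p of 0.050 to 0.061), and in session 3 alone (-1.19, adjusted p = 0.075).

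Between d0 and d4, 160877_at fell less with PPARg than with vector, a difference of changes of 0.75 ± 0.16 (limma adjusted p = 0.0043), while EBF1 minus vector was not past the test (-0.07 ± 0.16, 95% interval -0.39 to 0.24). In limma fits of 1 session alone the PPARg difference was 1.20 in session 1 (adjusted p = 0.0043) and 0.70 in session 2 (adjusted p = 0.39), which did not pass. On 99549_at the PPARg difference from d0 to d4 was not past the test in the fit of all arrays. There it was 0.32 in session 1 alone and 0.76 in session 2 alone, and passed in neither. For the difference of changes from d0 to d4, 1 of the 6 probe sets passed for EBF1 and 2 for PPARg, beside 7.26% and 1.64% of all probe sets. For d4 to d10, 1 passed for EBF1 and 2 for PPARg, beside 5.63% and 11.5%. The 2 Ogn probe sets had a Pearson r of 0.89 over the 53 arrays and of 0.93 over the 12 group means, as a description of sets that share their arrays.

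**Figure D2:**
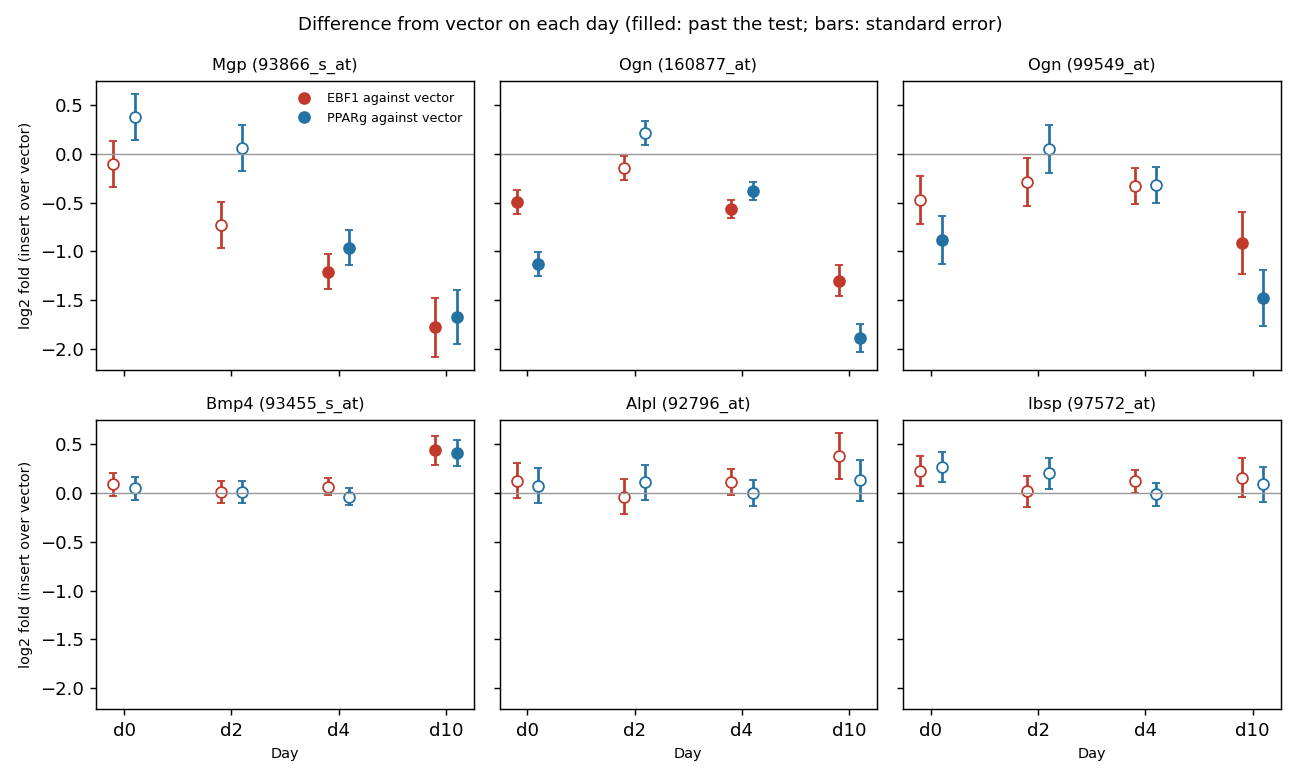
Log2 fold of EBF1 and of PPARg over vector on each day for the 6 tested probe sets, with standard errors as bars; filled points passed the limma test and open points did not. Mgp reaches -1.78 with EBF1 and -1.67 with PPARg at d10, Ogn 160877_at -1.30 and -1.89, and Alpl and Ibsp have open points on every day.

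**Figure D3:**
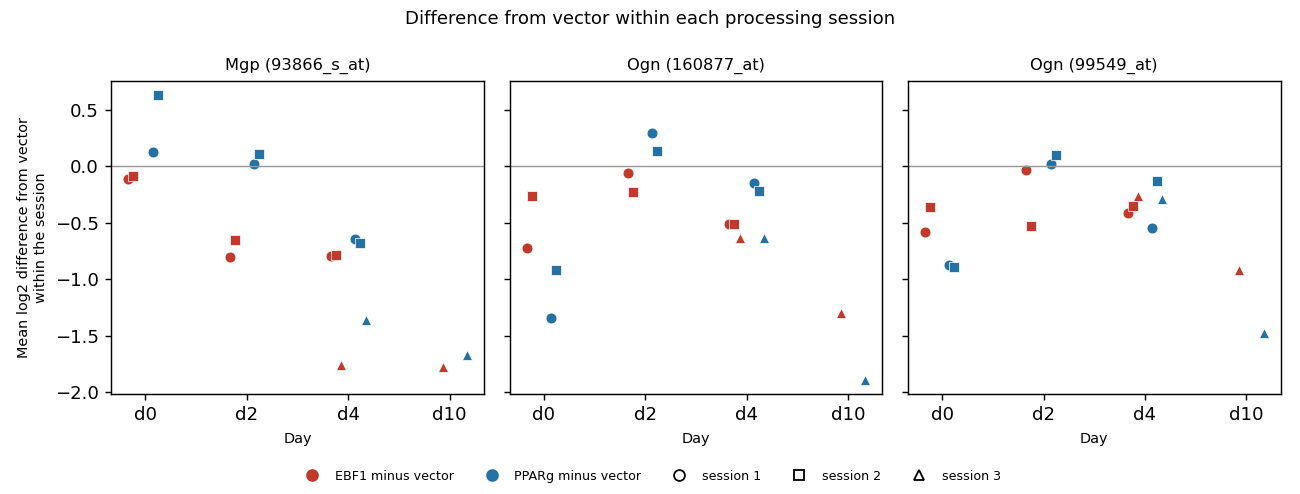
Mean log2 difference from vector within each processing session for Mgp and both Ogn probe sets, by day; colour gives the insert and shape the session. Mgp at d4 is -0.80, -0.79 and -1.76 for EBF1 and -0.65, -0.68 and -1.36 for PPARg in sessions 1, 2 and 3.

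In the order of mean log2 intensity, 160877_at of Ogn was highest in vector d0, followed by EBF1 d0, PPARg d0, vector d10, EBF1 d10, PPARg d10, vector d4, PPARg d4 and EBF1 d4, and lowest in PPARg d2, vector d2 and EBF1 d2. Each group from EBF1 d0 down to EBF1 d10 did not overlap with the next group, and vector d4 did not overlap with PPARg d4, while the other neighbours did.

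Markers of some cell types also differed between the inserts and vector at d4 and d10. Of 24 tested adipocyte markers, such as Adipoq and Fabp4 and with Pparg itself on the list, 14 were higher with each insert than with vector at d4 (with EBF1 1 was lower) and 18 with each insert at d10, where none was lower. Over all tested probe sets, 18.9% passed in either direction for EBF1 and 7.49% for PPARg at d4, and 18.3% and 23.6% at d10. Their summed intensity at d4 spanned 23301 to 35490 with EBF1, 28384 to 34089 with PPARg and 18991 to 24444 with vector. At d10 it spanned 47923 to 62236 with EBF1, 45024 to 51336 with PPARg and 9761 to 13738 with vector. Of the 11 fibroblast markers 8 were lower with EBF1 and 5 with PPARg at d4, and 4 and 8 at d10, where their sums spanned 35207 to 35286, 27245 to 28742 and, with vector, 44632 to 47878. The part of either marker list in the Mgp and Ogn results was not tested. Of 5 tested macrophage markers 0 passed in any comparison of an insert with vector. These 5, Cd68, Adgre1, Csf1r, Cd14 and Laptm5, lay above the floor on all 53 arrays. Of the untested ones, Itgam lay above it on 9 arrays and Lyz2 on 4, and Ptprc and Cd53 were at or below it on all 53. Of 4 tested smooth muscle markers 1 was lower with EBF1 and 2 with PPARg at d10, beside 18.3% and 23.6% of all probe sets.

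Bmp4, the secreted bone morphogenetic protein that starts bone and cartilage formation, was higher with both inserts than with vector at d10, and no difference passed earlier. Its promoter window is shown because it held the only match to the EBF motif among the 4 lineage genes with a RefSeq promoter entry, Ogn, Bmp4, Alpl and Ibsp. The 250 bases before the start site (GRCm38.p6, chr14:46390670-46390919, - strand) carry CCCATGGG, in capitals, starting 248 bases before it (-248).
Bmp4: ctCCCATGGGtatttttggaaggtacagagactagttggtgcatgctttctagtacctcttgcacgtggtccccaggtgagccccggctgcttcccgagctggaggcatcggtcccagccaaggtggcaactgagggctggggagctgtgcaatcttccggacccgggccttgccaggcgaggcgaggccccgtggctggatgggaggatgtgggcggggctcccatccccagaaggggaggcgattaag
E-boxes aside, no other motif of those searched was found in this window. Whether EBF1 binds there was not measured, and 11.8% of all RefSeq windows hold this motif. A window of Alpl, not shown, held AGGTCA at -31 and the reverse complement of AGAACA at -170.

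The tested probe set of Bmp4, 93455_s_at, read 127, 136, 129 and 125 with EBF1, 124, 122, 115 and 142 with PPARg, and 123, 109, 117 and 137 with vector at d0. At d2 it read 161, 161, 135 and 147 with EBF1, 161, 150.1, 154 and 139 with PPARg, and 144, 147, 139 and 171 with vector. The groups overlapped on both days, as they did at d4. On that day its lowest, median and highest intensities were 122, 159 and 177 with EBF1, 110.3, 146 and 162 with PPARg, and 117, 151 and 163 with vector.

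Up to d4 the Bmp4 folds over vector lay between -0.04 and 0.09 and none passed. The 95% intervals at d4 were -0.11 to 0.24 for EBF1 and -0.21 to 0.14 for PPARg. At d10 it read 171 and 208 with EBF1, 197, 191 and 167 with PPARg, and 117, 158 and 145 with vector, so that all insert arrays lay above all vector arrays. The log2 fold over vector was 0.44 ± 0.15 for EBF1 (limma adjusted p = 0.031), 1.36-fold, and 0.41 ± 0.13 for PPARg (limma adjusted p = 0.020), 1.33-fold. EBF1 minus PPARg was 0.03 ± 0.15, with a 95% interval of -0.27 to 0.33.

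These were small differences that rested on few arrays. Without vector d10 replicate 1, the lowest vector array, the fold was 0.32 for EBF1 (limma adjusted p = 0.22) and 0.29 for PPARg (adjusted p = 0.20), neither of which passed. The EBF1 call was also lost without EBF1 d10 replicate 2 (0.30, limma adjusted p = 0.36), and the PPARg call without PPARg d10 replicate 1 (0.36, adjusted p = 0.090) or 2 (0.38, adjusted p = 0.068). In fits of only the groups compared, the limma adjusted p were 0.20 for EBF1 and 0.098 for PPARg.

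Over the first days Bmp4 had small positive changes in all 3 groups. Its log2 change from d0 to d2 was 0.22 ± 0.12 with EBF1, 0.27 ± 0.12 with PPARg and 0.30 ± 0.12 with vector, and from d0 to d4 0.23 ± 0.10, 0.17 ± 0.10 and 0.25 ± 0.10, none past the test in limma. With the session as a block, 5 of these 6 changes passed, all but that from d0 to d2 with EBF1. From d4 to d10 it rose by 0.39 ± 0.11 with PPARg (limma adjusted p = 0.011), against 0.32 ± 0.13 with EBF1, which did not pass, and -0.06 ± 0.11 with vector. The PPARg call was lost without PPARg d10 replicate 1 or 2 (0.34 and 0.36, limma adjusted p = 0.091 and 0.065). Within session 3 alone the changes were 0.46 with EBF1, 0.50 with PPARg and 0.10 with vector. Between d10 and d4, 3 of the 6 probe sets passed in each group (Mgp lower, with both Ogn probe sets higher in EBF1 and vector cells, and 160877_at and Bmp4 higher in PPARg cells), beside 15.1% of all probe sets with EBF1, 18.2% with PPARg and 18.4% with vector.

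The other Bmp4 probe set, 93456_r_at, whose suffix marks relaxed rules of probe choice, was above the floor on 15 of 53 arrays. At d10 it read 60.8 and 71.7 with EBF1, 87.8, 78.2 and 54.9 with PPARg, and 51.3, 72.7 and 32.5 with vector. Those groups overlapped. Its Pearson r with 93455_s_at was 0.42 over the 53 arrays and 0.77 over the 12 group means.

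Alpl encodes tissue-nonspecific alkaline phosphatase, the enzyme by which bone-forming cells are stained. Its intensities on 92796_at lay between 123 and 274 on all 53 arrays, above the floor throughout. At d10 it read 156 and 227 with EBF1, 185, 175 and 123 with PPARg, and 125, 179 and 135 with vector. The groups overlapped, and the log2 fold over vector was 0.38 ± 0.23 for EBF1 (95% interval -0.09 to 0.85) and 0.13 ± 0.21 for PPARg (-0.29 to 0.55). At d0, d2 and d4 the folds lay between -0.04 and 0.13, and none passed. The d4 intervals of -0.16 to 0.39 for EBF1 and -0.27 to 0.27 for PPARg bound what could have been missed there. No change of Alpl between days passed, and the largest was from d4 to d10 with vector, -0.33 ± 0.18 (limma adjusted p = 0.22). Within session 3, the only session that held both days, this change was 0.04.

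Ibsp encodes bone sialoprotein, a matrix protein of mineralising tissue that nucleates mineral crystals. Its tested probe set, 97572_at, lay between 246 and 434 on all 53 arrays. At d10 it read 375 and 409 with EBF1, 385, 413 and 327 with PPARg, and 313, 434 and 316 with vector. The highest array of that day was a vector array, and the groups overlapped. The folds over vector were 0.16 ± 0.20 for EBF1 (95% interval -0.25 to 0.57) and 0.09 ± 0.18 for PPARg (-0.27 to 0.46), and on the earlier days they lay between -0.01 and 0.27, with none past the test.

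The 2 Ibsp probe sets went different ways. On 100476_at every array of d0, d2 and d4 lay between 13.4 and 34.7, below the floor. At d10 it read 17.9 and 28.1 with EBF1, 68.2, 73.4 and 54.2 with PPARg, and 38.1, 35.4 and 21.6 with vector. Only 2 arrays exceeded the floor, both PPARg, and all 3 PPARg arrays lay above the other 5 arrays of that day. Since it was below the filter it had no test, and with values at the floor PPARg was at least 1.19-fold higher than vector. In the limma fit without a filter, it passed for PPARg against vector at d10 (adjusted p = 5.7e-06), a p that rests on groups held at the floor. The r between the Ibsp probe sets was 0.24 over the 53 arrays and 0.38 over the 12 group means, so the 2 do not give 1 measure of Ibsp.

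**Figure D4:**
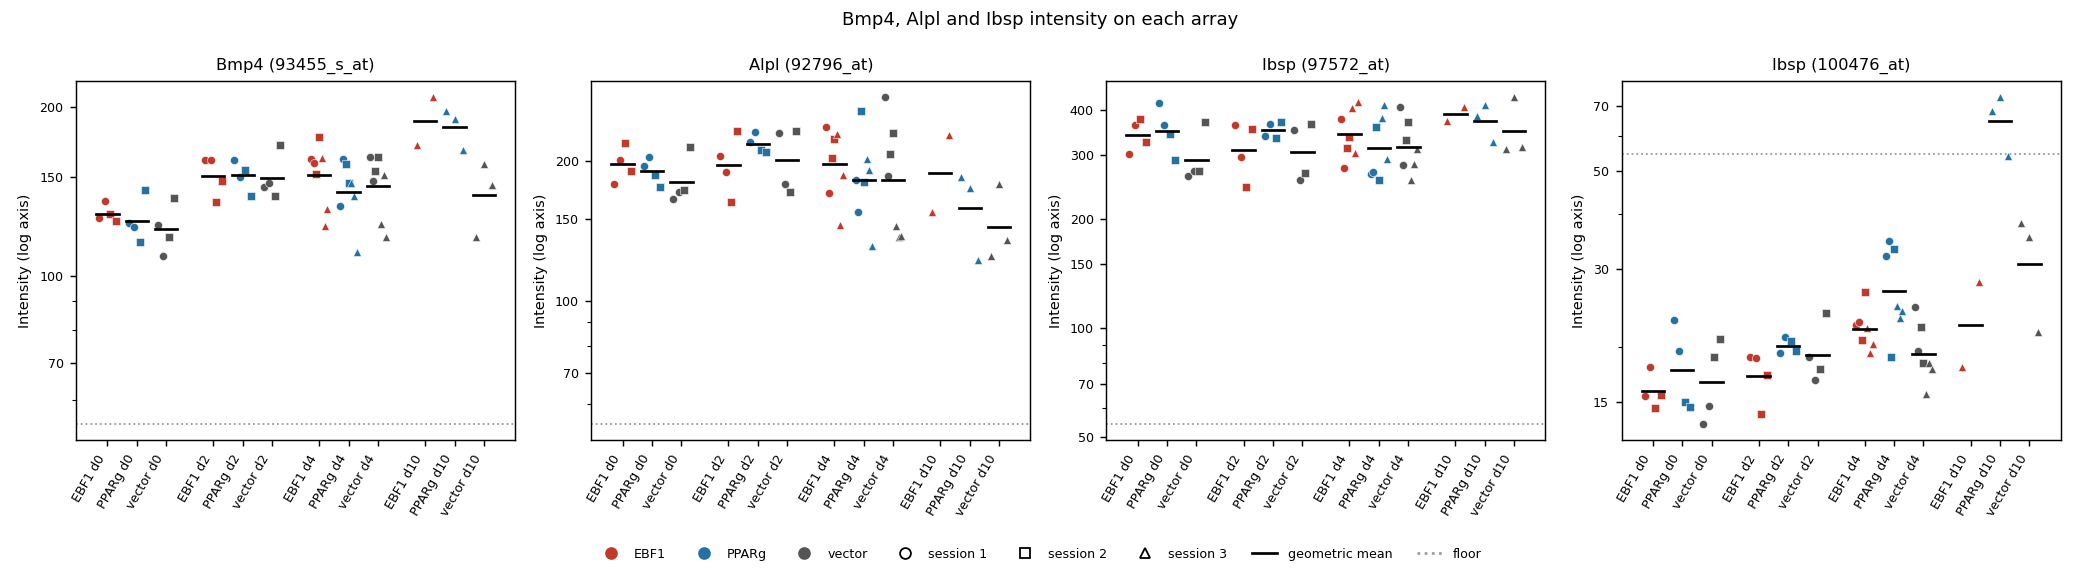
Intensity of Bmp4, Alpl and both Ibsp probe sets on each array (log axis) by insert and day, with points, bars and dotted floor as in the plot of Mgp and Ogn arrays. Bmp4 at d10 is 167 to 208 on EBF1 and PPARg arrays and 117 to 158 on vector arrays, and Ibsp 100476_at exceeds the floor of 54.5 on 2 PPARg arrays of d10.

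At d10, 4 of the 6 probe sets passed for each insert against vector, Mgp and both Ogn probe sets lower and Bmp4 higher, where 18.3% of all tested probe sets passed for EBF1 and 23.6% for PPARg. The median log2 fold of the 6 was -0.38 for EBF1 and -0.69 for PPARg, beside -0.02 and -0.00 over all probe sets. Over all days 15 of 48 tests of the lineage probe sets against vector passed. The 13 lower were all of Mgp and the 2 Ogn probe sets, and the 2 higher both of Bmp4. Alpl and Ibsp had none. In the same comparisons 0.564% to 23.6% of all tested probe sets passed.

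Among 40 further genes of the BMP pathway, 24 were tested. With EBF1 1 was higher and 6 lower than vector at d4 and again at d10, and with PPARg 1 was higher and 2 lower at d4 and 1 higher and 8 lower at d10. Of all tested probe sets, 18.9% passed for EBF1 and 7.49% for PPARg at d4, and 18.3% and 23.6% at d10. The median log2 folds were -0.05 and -0.14 for EBF1 and -0.11 and -0.08 for PPARg at d4 and d10, beside 0.04, -0.02, -0.02 and -0.00 over all tested probe sets. Tob1, an inhibitor of cell growth that binds Smad proteins and restrains BMP signalling in mouse osteoblasts, was the gene that rose. It averaged 1646 ± 313 (SD, n = 2) with EBF1 and 1318 ± 196 (SD, n = 3) with PPARg, against 328 ± 52.7 (SD, n = 3) with vector at d10. The log2 folds were 2.33 ± 0.20 and 2.01 ± 0.18 (limma adjusted p of 6.4e-13 and 2.3e-12). Id2, a helix-loop-helix inhibitor induced by BMPs, averaged 335 ± 135 with EBF1 and 279 ± 80.5 with PPARg against 783 ± 100.1 with vector, with log2 folds of -1.28 ± 0.32 and -1.52 ± 0.28. Id1, its relative, was lower with EBF1 at d4 (-0.50 ± 0.17), and Nbl1, a secreted BMP antagonist, with PPARg (-0.31 ± 0.09).

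Of 35 osteoblast regulators and bone matrix genes 21 were tested, and 4 of the 35 are also fibroblast markers. At d4 2 were higher and 7 lower with EBF1, and 0 and 3 with PPARg. At d10 4 were lower with EBF1 and 12 with PPARg, and none was higher. For all tested probe sets the shares past the test were 18.9% and 7.49% at d4 and 18.3% and 23.6% at d10, so that the 4 with EBF1 at d10 lie near the background. The median log2 folds at d10 were -0.27 and -0.51, beside -0.02 and -0.00 over all probe sets. Genes named here and in the lists that follow passed the limma test in the comparison given. Bgn, the proteoglycan biglycan, averaged 3608 ± 309 (SD, n = 2) with EBF1 and 5975 ± 414 (SD, n = 3) with vector at d10, a log2 fold of -0.73 ± 0.09. Cdh11, a cadherin of osteoblasts and mesenchyme, averaged 210.2 ± 42.6 with EBF1 and 168 ± 11.4 with PPARg, against 351 ± 38.5 with vector, log2 folds of -0.75 ± 0.19 and -1.06 ± 0.17. Col1a1, the main collagen chain of bone and also a fibroblast marker, averaged 2922 ± 108 with PPARg and 5929 ± 483 with vector (-1.02 ± 0.25). At d4 Postn, the matrix protein periostin, was higher with EBF1 (0.75 ± 0.13) and Lox, which crosslinks collagen, lower (-0.67 ± 0.16), and with PPARg the fibroblast markers Dcn and Fn1 were lower (-0.43 ± 0.09 and -0.38 ± 0.08).

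Of 29 chondrocyte genes 11 were tested, of which 1 was lower with EBF1 at d4 and at d10, and 0 and 2 with PPARg. No count here exceeds what the shares over all probe sets would give (18.9% and 18.3% for EBF1, 7.49% and 23.6% for PPARg). Vcan, the large proteoglycan versican, averaged 1270.4 ± 225 with EBF1 and 1006 ± 89.4 with PPARg, against 2776 ± 317 with vector at d10, log2 folds of -1.13 ± 0.15 and -1.46 ± 0.14. Matn2, a matrilin that is not confined to cartilage, was lower with PPARg (-1.30 ± 0.26). The list medians at d10 were -0.04 for both inserts, beside -0.02 for EBF1 and -0.00 for PPARg over all probe sets.

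Of 13 genes of mineralisation and vitamin K use 4 were tested, and 2 were lower with EBF1 and 1 with PPARg at d4, and 0 and 3 at d10. Over all probe sets the shares were 18.9% and 7.49% at d4 and 18.3% and 23.6% at d10. Gas6, a vitamin K dependent growth factor, was lower at d4 with EBF1 (-0.55 ± 0.16) and PPARg (-0.56 ± 0.16) and at d10 with PPARg (-0.86 ± 0.25). Vkorc1, which recycles the vitamin K that Mgp needs, was lower at d10 with PPARg (-0.64 ± 0.21), and Ank, a transporter that lets pyrophosphate leave the cell, at d4 with EBF1 (-0.22 ± 0.07). Of the integrins and other receptors of osteopontin and bone sialoprotein 5 of 9 were tested. At d4 Itgav (-0.47 ± 0.12) and Itgb1 (-0.24 ± 0.09) were lower with EBF1 and Itgb5 (-0.32 ± 0.08) with PPARg, all past the limma test. The shares over all probe sets on that day were 18.9% for EBF1 and 7.49% for PPARg. Itgav was lower with EBF1 (-0.84 ± 0.21) and PPARg (-1.33 ± 0.19) at d10, Itgb5 with EBF1 (-0.51 ± 0.14) and Itgb1 with PPARg (-0.89 ± 0.13), all past the limma test, with 2 of 5 lower for EBF1 and 3 of 5 for PPARg beside 18.3% and 23.6% of all probe sets.

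The genes whose pattern was most like that of each lineage gene were taken by Pearson r over the 12 group means of log2 intensity, points that come from the same arrays. For Mgp these were Arhgdib (0.95), Vasp (0.94) and Capn6 (0.92), and for Ogn (99549_at) Thbs2 (0.99), Tle5 (0.97) and Dnm1 (0.97). Chchd5 (0.97), Adam3 (0.95) and Abca1 (0.95) were nearest to Bmp4. For Alpl they were Lsg1 (0.94), Vmn2r89 (0.92) and Cry2 (0.92), and for Ibsp (97572_at) Htt (0.95), Tyk2 (0.94) and Neurog1 (0.94). The groups of these last 3 genes barely differed. Their mean log2 intensities spanned 6.92 to 7.56 for Bmp4, 7.18 to 7.77 for Alpl and 8.19 to 8.61 for Ibsp. All neighbours in order overlapped, so a high r there can rest on small differences between groups.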

How the data were processed

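Total RNA was hybridised to Affymetrix MG_U74Av2 arrays, per the labels. The deposited table holds 1 linear intensity per probe set and array as the authors computed it. The summarising algorithm, scaling and genome build are not given in the sources used here, and no further scaling was applied. Depth does not apply to arrays, whose number limits the precision.

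The sample titles give the 12 groups (insert and day). Values were floored at the pooled 20th percentile (54.5) and taken to log2. After removal of 66 controls and of probe sets that did not exceed the median of all values (158) on 2 or more arrays, 7619 were tested. In the platform annotation, 10855 probe sets had 1 symbol, 396 several and 1237 none, and of the first 10839 were matched by Entrez identifier to the RefSeq gene table. A gene with several probe sets was led by the one with the highest mean log2 intensity. No 2 arrays held identical values.

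Differences were fitted with limma 3.58.1 in R 4.3.3 (lmFit, eBayes with trend) as 1 mean for each of 12 groups, with 25 comparisons adjusted by Benjamini-Hochberg over all tested probe sets in each. The 95% intervals come from the same fit. Procedures were tested on simulated data. Whether replicate numbers pair arrays was checked by the correlation of same-numbered arrays of a day, as deviations from their group means. For EBF1 with vector at d2 all 4 pairs exceeded 0.1 (0.62 to 0.68), and same-numbered arrays there also share a session. No other combination of inserts and day with 3 or more pairs did so in every pair, and over all of them 31 of 52 pairs did (-0.58 to 0.78). Between days of 1 insert, 11 of 32 same-numbered pairs exceeded 0.1, and no comparison did in every pair. Processing sessions are month blocks set from the comment lines of the array experiment files, which do not number sessions themselves. Named genes are every probe set of the 8 lineage genes, the 3 genes nearest to each by Pearson r over group means, and, per related list and insert at d4 and d10, the 2 largest folds past the test. The genes and lists were chosen with earlier results of these data known. Promoter sequences are RefSeq's (GRCm38.p6). Mgp had no entry in that table.

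The alternatives tried were quantile normalization, the floor raised to the 40th percentile, the filter dropped or tightened (over 215 on 4 or more arrays), separate fits of the groups compared, session or replicate number as a block, each session by itself, each array left out and, chosen after seeing the data, eBayes without trend.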

Additional observations from a re-analysis of the deposited data

Results flagged for a closer look

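On vector d0 replicate 4 Alpl read 214, where the other 3 vector arrays of that day read 166 to 173, a gap wide enough to set it apart by Dixon's criterion at 95%. On the same array Ibsp 97572_at read 370.4, where the other 3 read 263 to 272. Chance sets apart about 1 group in 20, and 2 of the 54 groups tested were. No comparison of Alpl or Ibsp passed in the fit of all arrays or with only this array left out. In session 1 alone, which did not hold this array, Ibsp 97572_at did pass for 1 difference of changes. From d0 to d4, PPARg minus vector was -0.89 there (limma adjusted p = 0.040).

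The change over time differed between an insert and vector in 6 cases, each by the interaction term in limma. For EBF1 minus vector these were Mgp from d0 to d4 (-1.10) and Ogn 160877_at from d4 to d10 (-0.73). For PPARg minus vector they were Mgp from d0 to d4 (-1.34), Ogn 160877_at from d0 to d4 (0.75), and Ogn 160877_at and 99549_at from d4 to d10 (-1.51 and -1.16). Session 3 held no d0 arrays, and in sessions 1 and 2 alone the Mgp differences from d0 to d4 were -0.68 and -0.70 for EBF1 and -0.78 and -1.31 for PPARg. No explanation of these differences was tested.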

How the results depend on the processing

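For the 6 tested probe sets, 15 calls against vector became 12 to 16 over all settings, and 12 to 15 with an array left out. The 3 calls of EBF1 against PPARg became 1 with no filter, and 1 to 3 with an array left out. The 26 calls between days became 25 to 33, and 24 to 28 with an array left out, and the 6 differences of time courses 4 to 8, and 5 to 8. With the replicate block the calls were 16, 2, 31 and 8. Apart from that of Mgp for EBF1 against vector at d2, the calls it changed lie in comparisons that the numbers did not pair. Over single values, 2954 of 3088 kept their side of the threshold, 84 lost the call and 49 gained it. Calls that were kept also kept their direction, but values past the test in neither fit could change direction and still be counted as kept. The last 1 reversed with a call: Mgp 93866_s_at, d4 against d0 in vector, which was 0.40 and became -0.49 in session 1 alone. The cause was not tested. EBF1 against PPARg for Mgp at d2 has no value under the higher floor, where both groups lie below it. Over all probe sets, counts rose by over 1.5 times in 15 of 25 comparisons with the replicate block and 8 with the session block (EBF1 against vector at d2, from 117 to 238 and 227), and fell so in 11 in fits of only the groups compared (EBF1 against PPARg at d10, from 101 to 0). Quantile normalization moved the share of higher among all calls by over 10 percentage points in 7 comparisons. Against vector it was 46.8% in place of 58.1% for EBF1 at d4, and 47.9% in place of 58.0% at d0 and 64.3% in place of 76.0% at d4 for PPARg. It was 52.1% in place of 75.2% for EBF1 against PPARg at d10, 43.3% in place of 32.1% for d2 against d0 in PPARg, 51.1% in place of 62.1% for d10 against d4 in EBF1, and 65.4% in place of 75.8% for d10 minus d4, EBF1 minus vector. Signal near the floor limits Mgp at d2 and d10 and Ogn at d2.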
